A study of Mus musculus with 2 samples.

Results

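The genes described here encode the kinases of the MAP kinase cascade, the adaptors that carry a MAP kinase name, and the dual-specificity phosphatases (DUSPs). They were taken by name: every probe that is not a control and whose gene name in either scanner file starts with Mapk, Map2k, Map3k, Map4k or Dusp and a digit, with 1 MAP3K left out by the rule. This gave 133 of 41174 probes and 64 genes. Of these genes 56 were tested, among 21960 genes tested in all, and 109 of their probes. The other 8 members (Dusp3, Dusp13, Styxl1, Map3k7, Map3k13, Mapk4, Mapk10 and Mapk13) did not pass the filter on dim probes, for which the same population had to be well above background on array 1 and on array 2, and have no value here. Another 2 of the 133 probes carried different gene names in the scanner files, Dusp12 or Flnc and Mapk8 or Rgs20, and stand for no member.

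Both populations came from spleens of C57BL/6 mice, a common inbred laboratory strain, and were sorted as CD8+CD122+ or CD8+CD122- cells. CD122 is the beta chain shared by the receptors for interleukin 2 and interleukin 15, and the series title calls the CD8+CD122+ cells regulatory. Their amplified polyA RNA was hybridised on 2 two-colour Agilent arrays, each holding both populations. On array 1 the CD8+CD122+ RNA was labelled with Cy5 and its partner with Cy3, and on array 2, labelled as a repeat trial, the dyes were exchanged. Age, sex, treatment and the number of mice pooled are not given in the sources used here. Because each array is also its own trial, its own dye order and its own scan, these cannot be told apart where the arrays differ. The labels do not say that the second trial used new mice, so p-values cannot be taken to measure a spread between mice. They rest on the spread between these 2 arrays, pooled in limma with that of all genes tested.

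In the cascade a MAP4K or another upstream signal switches on a MAP3K, which phosphorylates a MAP2K, which phosphorylates a MAP kinase on a threonine and a tyrosine of its activation loop. The main MAP kinases are the ERKs, driven through Ras and Raf by the T cell receptor, and the JNKs and p38 kinases, driven by stress, cytokines and costimulation. DUSPs remove both phosphates again, and several of their genes are themselves switched on by MAP kinase signalling. RNA levels say nothing of the phosphorylation of these proteins.

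Every ratio below is a log2 ratio of CD8+CD122+ over CD8+CD122-, opposite in direction to the value table of the series. A positive value means more signal in CD8+CD122+ cells. Errors are the SD over n = 2 arrays. Intensities are normalised linear spot signals that include an added offset of 50, so ratios of dim probes are understated. They were normalised within each array and not scaled between the arrays. In bulk RNA, fewer cells of a type and less RNA per cell cannot be told apart.

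The sort and the cell types were checked first. Il2rb, the gene of CD122, had log2 ratios of 2.60 on array 1 and 2.34 on array 2. The CD8 chain genes had ratios of -0.31 and -0.91 (Cd8a) and of -0.48 and -0.86 (Cd8b1). Of the other cell types' markers, 23 of 29 were tested. The summed intensity in CD8+CD122+ and CD8+CD122- cells was 814 and 851 on array 1 and 866 and 981 on array 2 for 6 of 6 B cell markers, and 155 and 150 and then 203 and 215 for 2 of 3 CD4 T cell markers. It was 1132 and 823 and then 1081 and 913 for 4 of 5 NK cell markers, 729 and 631 and then 1005 and 906 for 5 of 6 myeloid markers, 659 and 656 and then 946 and 911 for 4 of 5 dendritic cell markers, and 1114 and 1039 and then 2910 and 2627 for 2 of 4 erythroid markers. Cd79b, a B cell receptor gene, had 291 and 335 and then 233 and 394, and without it the other 5 B cell markers summed to 523 and 516 on array 1 and 634 and 587 on array 2. No tested marker was at 0, and each probe's value includes the offset. The NK sum holds Eomes (1.63 and 1.02), a gene of memory CD8 T cells too, and the myeloid sum holds Lyz2 (0.77 and 0.33). The part of these cells in the results below was not tested. The arrays also differed in Xist, the RNA of the inactive X chromosome: 1 of its 2 tested probes had mean spot signals of 92.9 and 104 in CD8+CD122+ and CD8+CD122- cells on array 1, and of 1440 and 1191 on array 2. The other had 289 and 236, then 526 and 762.

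No member reached 1.5-fold in one direction on both arrays, and none passed limma's test. At 2-fold on both arrays, 0 of 56 members were higher in CD8+CD122+ cells, beside 0.31% of all genes tested, and 0 were lower, beside 0.105%. At 1.5-fold the counts were 0 higher, beside 0.742%, and 0 lower, beside 0.369%. By limma at an adjusted p under 0.05, 0 members and 0.0% of all genes were called. The smallest adjusted p of limma was 0.582 among members and 0.152 among all genes. At an unadjusted p under 0.05 there were 6 members (10.7%), beside 6.4% of all genes: Dusp6 and Mapk11 on the higher side, where the share of all genes is 2.87%, and Dusp7, Tab1, Tab2 and Map4k2 on the lower side, where it is 3.53%. Signs were split as well. Of the 56 members 15 (26.8%) were positive on both arrays, beside 29.2% of all genes, 17 (30.4%) were negative on both, beside 24.1%, and 24 (42.9%) had opposite signs, beside 46.7%.

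The members spread around 0 rather than to one side. Their median log2 ratio was 0.01 on array 1 and -0.05 on array 2, beside 0.01 and 0.00 over all genes. The quartiles of their mean ratios were -0.14 and 0.09, and those of all genes -0.07 and 0.06. On array 1 the SD over members was 0.21, beside 0.22 over all genes, and on array 2 it was 0.47, beside 0.33. The median distance between a member's ratios on the 2 arrays was 0.20, and 0.12 over all genes. Members were also brighter, with a median log2 intensity of 7.58, beside 7.12 over all genes. Across the 56 members, which are not independent replicates and share both arrays, Pearson's r between the arrays was 0.14 and Spearman's rho 0.26. Without Dusp10 (n = 55) r was 0.37, so that the pooled value rested on that gene. Over all genes r was 0.41 and rho 0.10.

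**Figure D1:**
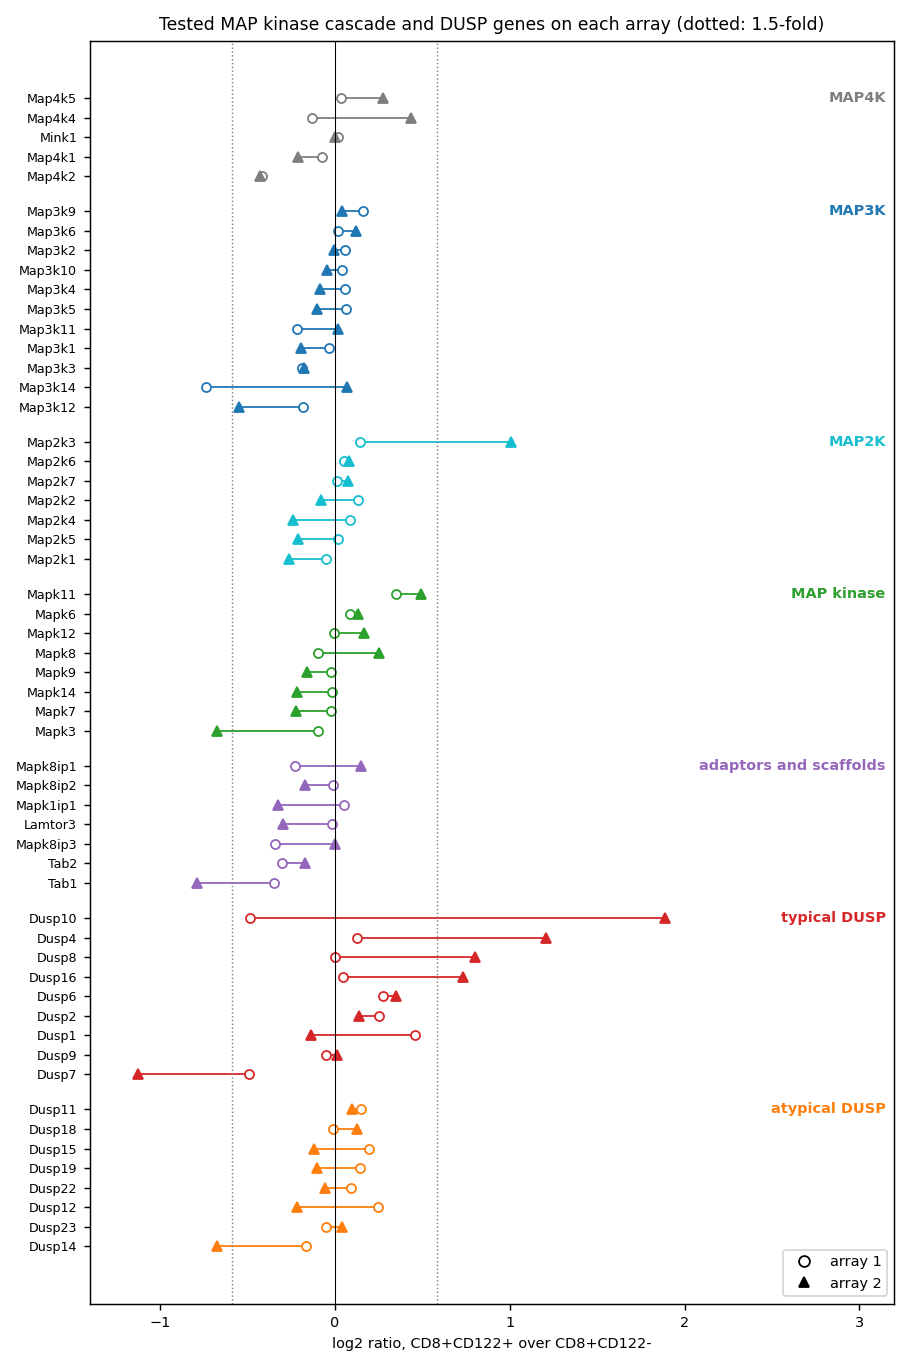
Log2 ratio of CD8+CD122+ over CD8+CD122- for 55 of the 56 tested members, grouped by role, with array 1 as open circles and array 2 as filled triangles joined by a line. Dotted lines mark 1.5-fold. The 7 adaptors and scaffolds have means below 0, and the widest distance between arrays belongs to Dusp10.

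The 2 arrays differed in which members were furthest from 0. On array 1 no member was 1.5-fold higher in CD8+CD122+ cells, beside 1.13% of all genes, and 1 member, Map3k14, was 1.5-fold lower, beside 0.856%. On array 2, 5 members (8.93%) were 1.5-fold higher, beside 3.3% of all genes: Dusp10, Dusp4, Dusp8, Dusp16 and Map2k3. A further 4 (7.14%) were 1.5-fold lower there, beside 3.66%: Dusp7, Tab1, Mapk3 and Dusp14.

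**Figure D2:**
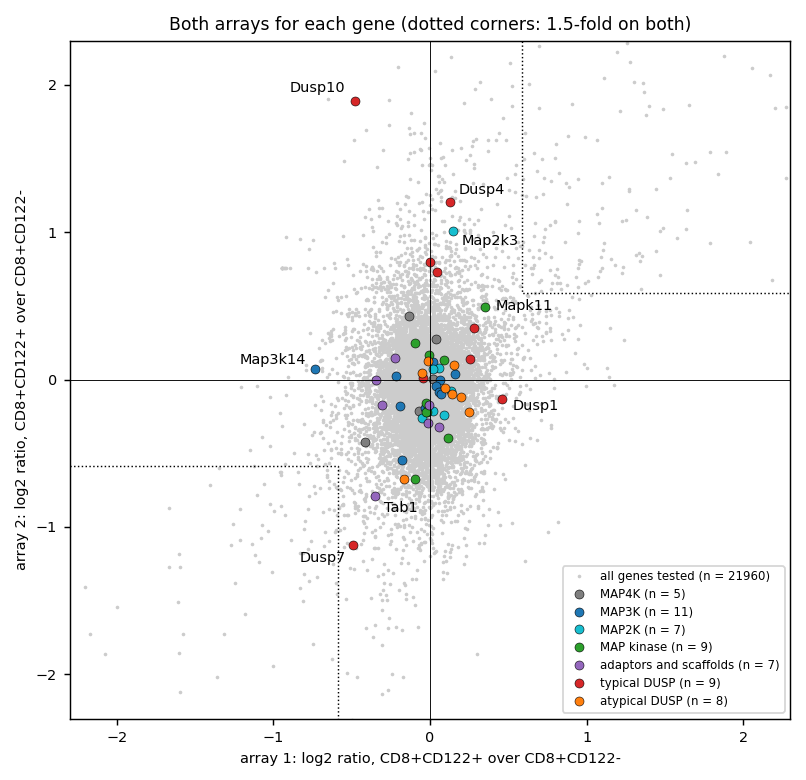
Each gene's log2 ratio (CD8+CD122+ over CD8+CD122-) on array 1 (horizontal) and array 2 (vertical), with all 21960 genes in grey and members coloured by role. The dotted corners hold genes at least 1.5-fold apart in one direction on both arrays, and no member lies in them. Of all genes 43, none of them a member, lie beyond the axes and are not drawn.

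The typical MAP kinase phosphatases, which act directly on MAP kinases, held the widest values. All 9 of this class that the rule found were tested. Both arrays were positive for 5 of these genes, beside 29.2% of all genes, and negative for 1, beside 24.1%. The signs differed for 3, beside 46.7%. The 5 include Dusp8, which was at 0.00 on array 1 and had opposite signs by a brighter probe that carries another name. The median over the class was 0.05 on array 1 but 0.35 on array 2, and that of the mean ratios was 0.31. On the mean 7 of 9 were positive and 2 negative, beside 46.7% of all genes with a negative mean in this processing. The count of 7 held in all 6 alternative ways of processing, which use the same 2 arrays. With median centring in place of loess only 1 (Dusp4) was positive on both arrays. Dusp2, Dusp6, Dusp8 and Dusp16 then had opposite signs, positive on array 1 for Dusp2 and Dusp6.

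The 3 phosphatases that prefer JNK and p38 are Dusp8, Dusp10 and Dusp16. By the probes used, each was over 1.5-fold higher in CD8+CD122+ cells on array 2, beside 3.3% of all genes. On array 1 they lay between -0.48 and 0.05. Dusp8 and Dusp16 were dim, and a brighter Dusp8 probe that carries another name had 0.26 on array 2. Promoters of Dusp8 and Dusp10 are shown here with those of Dusp1 (opposite signs the other way), Dusp7 (the lowest member) and Map2k3 (a kinase upstream of p38 that was 2-fold higher on array 2). They come from RefSeq, build GRCm38.p6, and run 5′ to 3′ over 250 bases before and 50 bases after the annotated start. The windows are chr7:142095235-142095534 on the minus strand for Dusp8, chr1:184034131-184034430 on the plus strand for Dusp10, chr17:26508423-26508722 on the minus strand for Dusp1, chr9:106368382-106368681 on the plus strand for Dusp7 and chr11:60931804-60932103 on the plus strand for Map2k3. Capitals mark a match to a motif searched on both strands: the AP-1 site TGANTCA, the cyclic AMP response element (CRE) TGACGTCA, the ETS core CCGGAA, the CArG box or the NF-kB site.

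Dusp8: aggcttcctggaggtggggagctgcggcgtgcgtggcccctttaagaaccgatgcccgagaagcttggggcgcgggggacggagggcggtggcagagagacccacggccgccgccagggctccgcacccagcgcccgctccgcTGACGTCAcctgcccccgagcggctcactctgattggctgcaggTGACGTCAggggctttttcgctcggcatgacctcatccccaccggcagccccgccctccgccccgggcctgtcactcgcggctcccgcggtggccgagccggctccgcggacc

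Dusp10: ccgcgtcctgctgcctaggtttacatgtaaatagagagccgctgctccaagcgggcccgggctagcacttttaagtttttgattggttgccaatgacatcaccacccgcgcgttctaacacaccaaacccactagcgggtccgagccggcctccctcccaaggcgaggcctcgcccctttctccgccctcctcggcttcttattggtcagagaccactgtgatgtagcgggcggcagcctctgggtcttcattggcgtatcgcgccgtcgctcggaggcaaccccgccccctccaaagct

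Dusp1: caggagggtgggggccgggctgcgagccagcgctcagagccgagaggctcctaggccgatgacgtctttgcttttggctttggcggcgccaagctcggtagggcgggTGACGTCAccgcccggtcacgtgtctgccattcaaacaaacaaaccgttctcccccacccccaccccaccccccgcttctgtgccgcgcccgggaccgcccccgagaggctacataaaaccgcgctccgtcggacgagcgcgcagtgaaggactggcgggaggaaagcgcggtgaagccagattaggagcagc

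Dusp7: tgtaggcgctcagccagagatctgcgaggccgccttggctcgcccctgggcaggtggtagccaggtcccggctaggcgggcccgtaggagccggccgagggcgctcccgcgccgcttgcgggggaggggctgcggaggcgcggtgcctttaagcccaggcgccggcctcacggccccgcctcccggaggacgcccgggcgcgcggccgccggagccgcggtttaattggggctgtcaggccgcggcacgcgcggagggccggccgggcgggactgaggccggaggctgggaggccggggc

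Map2k3: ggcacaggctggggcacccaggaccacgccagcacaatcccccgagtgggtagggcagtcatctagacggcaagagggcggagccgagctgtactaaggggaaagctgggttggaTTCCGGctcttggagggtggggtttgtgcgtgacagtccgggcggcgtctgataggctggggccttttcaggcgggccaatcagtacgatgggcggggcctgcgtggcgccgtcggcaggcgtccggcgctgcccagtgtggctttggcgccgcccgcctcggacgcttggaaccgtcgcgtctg

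Dusp8 held the CRE in 2 places, starting at positions -107 and -63 from the start, and Dusp1 held it once, at -143. Map2k3 held the ETS core at -135, read on the opposite strand. Dusp7 and Dusp10 had no match to the 5 motifs in these letters. The window of Dusp16, which is not printed, had no match either. The table had promoters for 51 members, 67 windows in all. The CRE was in 5 of them (7.46%), those of Dusp1, Dusp8, Mapk10 and Styxl1 (2 windows), beside 1.79% of all 32851 promoters. The ETS core was in 15 (22.4%), beside 14.9%, the AP-1 site in 4 (5.97%), beside 7.81%, the NF-kB site in 4 (5.97%), beside 4.51%, and the CArG box in 0, beside 1.63%. These matches are a description of letters, with no test.

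Dusp10, which encodes a phosphatase of JNK and p38, had ratios of opposite sign. Its intensity in CD8+CD122+ and CD8+CD122- cells was 920 and 1284 on array 1, and 3803 and 1027 on array 2. The arrays were not scaled to each other, so these levels do not show which population differed between them. The log2 ratios were -0.48 and 1.89, a mean of 0.70 ± 1.68 (limma's adjusted p 0.934). Among 21960 genes 5 (0.0228%), Dusp10 included, had so wide a distance between arrays. The deposited processed signals gave -0.50 and 1.96, so this distance is in the scanner's own values too. With median centring the ratios were closer, at -0.11 and 1.45, and still of opposite signs. A single probe stands for the gene.

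Dusp8 and Dusp16, which encode phosphatases of the same class, were near 0 on array 1. Dusp8 had intensities of 80.7 in CD8+CD122+ and 80.6 in CD8+CD122- cells on array 1, and 146 and 83.7 on array 2. Its log2 ratios were 0.00 and 0.80, a mean of 0.40 ± 0.57 (limma's adjusted p 0.896). Another Dusp8 probe, which carries a different name in the files, had -0.03 and 0.26. Dusp16 had 68.7 in CD8+CD122+ and 66.5 in CD8+CD122- cells on array 1, and 123 and 73.9 on array 2, for log2 ratios of 0.05 and 0.73 (0.39 ± 0.49; limma's adjusted p 0.895). The second Dusp16 probe had 0.00 and 1.02, but its CD8+CD122- spot on array 2 was not well above background. With the deposited processed signals, which carry no offset, the ratios were 0.02 and 1.63 for Dusp8 and 0.33 and 1.76 for Dusp16. Both genes were dim, among the 15 members with a mean log2 intensity under 7.

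Of the inducible nuclear phosphatases, Dusp4, which acts on ERK and JNK in the nucleus, followed the same split. Its intensities were 168 in CD8+CD122+ and 154 in CD8+CD122- cells on array 1, and 278 and 120 on array 2. The log2 ratios were 0.13 and 1.21, a mean of 0.67 ± 0.76 (limma's adjusted p 0.893). Of its other probes, 1 had 0.20 and 1.49, and the dimmest had 0.07 and 0.09. Dusp2, an inducible phosphatase of activated lymphocytes, had intensities of 14437 in CD8+CD122+ and 12096 in CD8+CD122- cells on array 1, and 29746 and 27022 on array 2. Its ratios of 0.26 and 0.14 (0.20 ± 0.08) were small but on one side (limma's adjusted p 0.821). Dusp1, the immediate early phosphatase MKP-1, had 2628 in CD8+CD122+ and 1915 in CD8+CD122- cells on array 1, and 1831 and 2008 on array 2. Its ratios of 0.46 and -0.13 (0.16 ± 0.42) had opposite signs, and its place was the reverse of that of Dusp10.

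The cytoplasmic phosphatases that act mainly on ERK had values on both sides. Dusp6, a feedback gene of ERK, had intensities of 1819 and 1765 in CD8+CD122+ cells on arrays 1 and 2, against 1500 and 1383 in CD8+CD122- cells. Its log2 ratios of 0.28 and 0.35 (0.31 ± 0.05, 1.24-fold) were close to each other, with an adjusted p of 0.656 in limma, but with median centring they were 0.69 and -0.08. Dusp7, from the same class, had 648 and 426 in CD8+CD122+ cells, against 911 and 929 in CD8+CD122- cells. Its log2 ratios of -0.49 and -1.12 (-0.81 ± 0.45, 1.75-fold lower) gave the lowest mean of the 56 members, with an adjusted p of 0.716 in limma. With median centring they were -0.15 and -1.50, and a single probe stands for the gene. Dusp9 had ratios of -0.05 and 0.01.

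**Figure D3:**
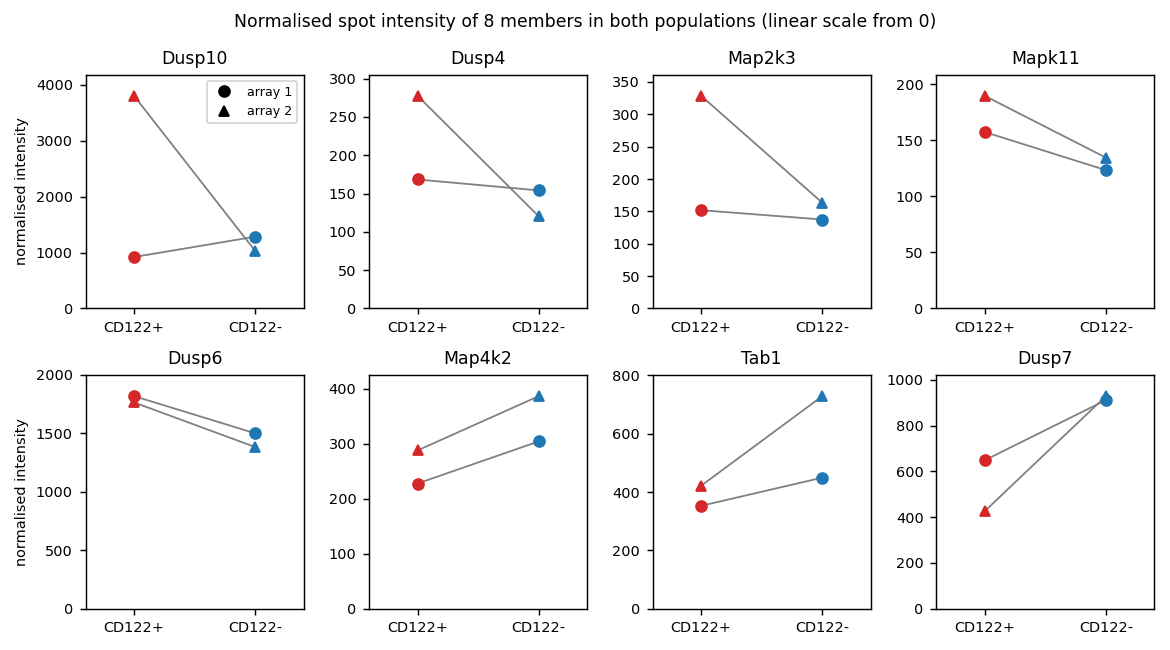
Normalised intensity (linear, from 0) of 8 members in CD8+CD122+ (red, left) and CD8+CD122- cells (blue, right), with a line for each array. On each array, after loess, CD8+CD122+ cells are higher for Mapk11 and Dusp6 and lower for Map4k2, Tab1 and Dusp7, whereas the lines of Dusp10 cross and those of Dusp4 and Map2k3 are steep on array 2 alone.

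The atypical DUSPs lack the domain that binds MAP kinases, and several act on other substrates. Of 11 genes 8 were tested. On both arrays 1 was positive, beside 29.2% of all genes, and 1 negative, beside 24.1%, and 6 had mixed signs, beside 46.7%. The medians were 0.12 on array 1 and -0.08 on array 2. Dusp14, known as a brake on T cell receptor signalling that removes phosphate from TAB1, had intensities of 208 and 294 in CD8+CD122+ cells on arrays 1 and 2, against 233 and 468 in CD8+CD122- cells. Its ratios were -0.16 and -0.67 (-0.42 ± 0.36; limma's adjusted p 0.859), but its other probe had 0.10 and 0.30, and with median centring the signs differed, so the gene has no settled direction. Dusp11, an RNA phosphatase, was the member positive on both, at 0.15 and 0.10, with its 4 probes between -0.12 and 0.13 on the mean. Dusp12 (0.25 and -0.22) and Dusp15 (0.20 and -0.12) had the widest opposite signs. For Dusp15 the CD8+CD122- spot on array 1 was not well above background, and the deposited processed signals gave 1.03 and -0.23. Dusp19 (0.14 and -0.10) and Dusp22 (0.09 and -0.05), the second of which restrains Lck in T cells, also had probes of either sign on the mean. Dusp18 had -0.01 and 0.13, and Dusp23 -0.05 and 0.04.

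At the top of the cascade, the 5 MAP4K genes had medians of -0.07 on array 1 and 0.00 on array 2. Map4k2, germinal centre kinase, which feeds the JNK pathway, had intensities of 228 and 288 in CD8+CD122+ cells on arrays 1 and 2, against 304 and 386 in CD8+CD122- cells. The ratios of -0.42 and -0.43 were nearly equal. The mean of -0.42 ± 0.01 (1.34-fold lower) had the smallest adjusted p of the members in limma, 0.582, and a second probe gave -0.47 and -0.24. With median centring the ratios were further apart, at -0.18 and -0.73. Map4k5 had 0.04 and 0.28, with its probes between -0.01 and 0.16 on the mean. Map4k4 had -0.13 and 0.43, or 0.13 and 0.10 with median centring, and a brighter Map4k4 probe that carries another name in the files had 0.09 and -0.14. Map4k1, which encodes HPK1, a brake on T cell receptor signalling, had -0.07 and -0.21, and Mink1 had 0.02 and 0.00.

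Among the MAP3K genes 11 of 13 were tested. On both arrays 2 were positive, beside 29.2% of all genes, and 3 negative, beside 24.1%, and 6 had mixed signs, beside 46.7%. Their medians were 0.02 and -0.05. Map3k14 encodes NIK, the kinase of the alternative NF-kB pathway. It had intensities of 296 in CD8+CD122+ and 493 in CD8+CD122- cells on array 1, and 695 and 662 on array 2. The ratios were -0.74 and 0.07 after loess (-0.33 ± 0.57; limma's adjusted p 0.918), and -0.46 and -0.31, both negative, with median centring. Map3k12, which encodes the JNK pathway kinase DLK, had 87.7 in CD8+CD122+ and 99.3 in CD8+CD122- cells on array 1, and 90.1 and 131 on array 2, for ratios of -0.18 and -0.55 (-0.36 ± 0.26; limma's adjusted p 0.824). The deposited processed signals gave -0.44 and -1.11. Map3k3, the gene of MEKK3, had the closest ratios of this class, -0.19 and -0.18 (-0.18 ± 0.01; limma's adjusted p 0.791), which took opposite signs with median centring, and its second probe had -0.33 and -0.15. Map3k11, a mixed-lineage kinase gene, had -0.22 and 0.02. Map3k4, whose product is switched on by GADD45 proteins, had 0.06 and -0.08, with 5 probes between -0.06 and 0.13 on the mean. By their brightest probes, the other 6 (Map3k1, Map3k2, Map3k5, Map3k6, Map3k9 and Map3k10) lay between -0.19 and 0.16 on either array. Another Map3k5 probe had -0.45 and 0.21, and another Map3k10 probe -0.14 and -0.21.

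The 7 MAP2K genes were all tested, with 3 positive and 1 negative on both arrays and 3 of mixed sign. The same shares over all genes are 29.2%, 24.1% and 46.7%. Map2k3, which encodes a kinase that phosphorylates p38, had intensities of 152 in CD8+CD122+ and 137 in CD8+CD122- cells on array 1, and 329 and 163 on array 2. Its ratios were 0.14 and 1.01 (0.58 ± 0.61; limma's adjusted p 0.884), a split like that of Dusp4. Its partner for p38, Map2k6, had 0.06 and 0.08, and Map2k7, which phosphorylates JNK, had 0.02 and 0.08 with 6 probes between -0.04 and 0.19 on the mean. Map2k4, which also phosphorylates JNK, had 0.09 and -0.24, and Map2k5, the kinase gene upstream of ERK5, 0.02 and -0.21. For Map2k1 and Map2k2, whose products phosphorylate ERK, the arrays gave -0.05 and -0.26 and then 0.13 and -0.08.

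Of the 12 MAP kinase genes 9 were tested, with 2 positive and 4 negative on both arrays and 3 of mixed sign. Over all genes the shares are 29.2%, 24.1% and 46.7%. Mapk11, which encodes p38 beta, had intensities of 157 and 190 in CD8+CD122+ cells on arrays 1 and 2, against 123 and 135 in CD8+CD122- cells. Its ratios of 0.35 and 0.50 gave a mean of 0.42 ± 0.10 (1.34-fold) and an adjusted p of 0.617 in limma. With the deposited processed signals they were 0.61 and 0.74, which made it the 1 member over 1.5-fold on both arrays in that processing.

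Other MAP kinase genes were closer to 0 on the mean. Mapk14, p38 alpha, had intensities of 615 and 735 in CD8+CD122+ cells on arrays 1 and 2, against 623 and 854 in CD8+CD122- cells, for a mean ratio of -0.12 ± 0.14, with a 95% interval in limma from -0.39 to 0.15. Mapk3, the gene of ERK1, had 454 and 528 in CD8+CD122+ cells, against 487 and 843 in CD8+CD122- cells. Its ratios of -0.10 and -0.67 (-0.39 ± 0.41) had an interval from -0.99 to 0.22, and its 4 probes lay between -0.39 and 0.00 on the mean. With median centring the ratios were 0.20 and -1.05. Mapk8, the gene of JNK1, had -0.09 and 0.25 (0.08 ± 0.24; interval from -0.31 to 0.47) and Mapk9, the gene of JNK2, -0.02 and -0.16 (-0.09 ± 0.09; interval from -0.32 to 0.14), each with probes of either sign. Mapk6 (0.09 and 0.13), Mapk7 (-0.02 and -0.22) and Mapk12 (0.00 and 0.17), which encode ERK3, ERK5 and p38 gamma, were also tested. These intervals rest on 2 arrays and do not show equal expression.

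**Figure D4:**
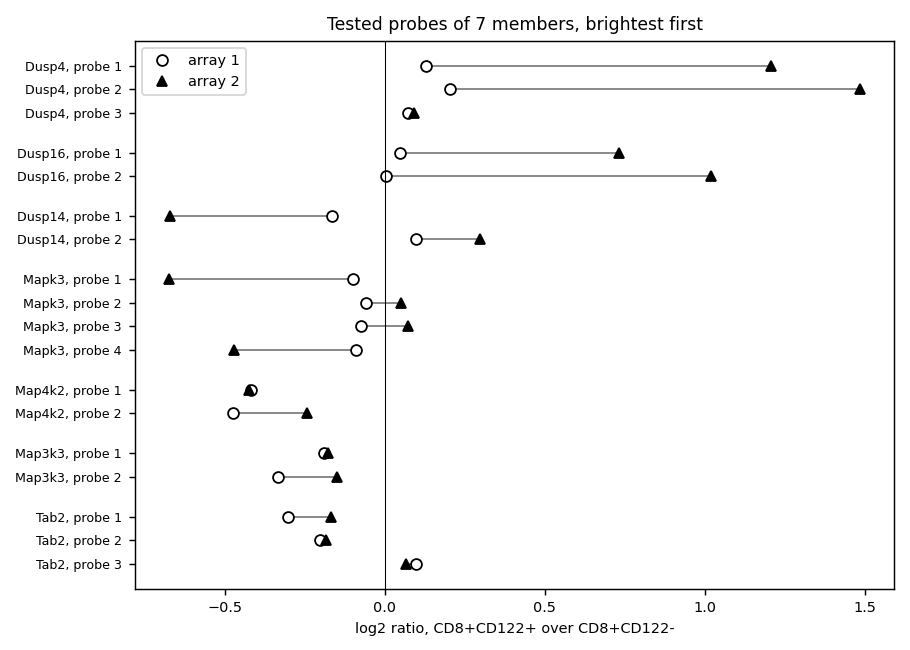
Log2 ratio (CD8+CD122+ over CD8+CD122-) of each tested probe of 7 members on array 1 (open circles) and array 2 (filled triangles), the brightest probe of a gene first. Probes of Map4k2 and Map3k3 lie close together, and those of Dusp14 and Tab2 fall on both sides of 0.

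The adaptors and scaffolds, which hold kinases of one cascade together, were the class furthest to the lower side. Of 7 genes, all tested, 5 were negative on both arrays, beside 24.1% of all genes, and 2 had opposite signs, beside 46.7%. Among the 5 are Mapk8ip3, at 0.00 on array 2, and Mapk8ip2 and Lamtor3, at -0.01 and -0.02 on array 1. The mean ratio was negative for all 7, in the processing used here and in 6 alternatives, beside 46.7% of all genes with a negative mean in this processing. With median centring 3 were negative on both arrays, and with the deposited processed signals also 3. The count was 4 without the offset and 6 with the mean of all probes. The medians were -0.23 on array 1 and -0.17 on array 2. Tab1, whose product binds and activates the kinase TAK1, had intensities of 353 and 422 in CD8+CD122+ cells on arrays 1 and 2, against 450 and 729 in CD8+CD122- cells. Its ratios of -0.35 and -0.79 (-0.57 ± 0.31, 1.48-fold lower) had an adjusted p of 0.731 in limma. With median centring they were -0.07 and -1.15, and a single probe stands for the gene. Tab2, which links TAK1 to ubiquitin chains, had 292 and 384 in CD8+CD122+ cells, against 360 and 431 in CD8+CD122- cells. Its ratios were -0.30 and -0.17 (-0.24 ± 0.10; limma's adjusted p 0.779). One of its other probes had -0.20 and -0.18 and the dimmest 0.10 and 0.07. The gene of TAK1 itself, Map3k7, is among the members not tested. The scaffold genes of the JNK pathway had -0.23 and 0.15 (Mapk8ip1), -0.01 and -0.17 (Mapk8ip2) and -0.34 and 0.00 (Mapk8ip3). Lamtor3, the endosomal MEK and ERK scaffold, had -0.02 and -0.29, and Mapk1ip1 had 0.06 and -0.32.

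Several members had probes that differed. Of 31 genes with more than 1 tested probe, 14 had probes of either sign on the mean. Among these were Dusp11, Dusp14, Dusp19, Dusp22, Map2k4, Map2k5, Map2k6, Map2k7, Map3k4, Map4k5, Mapk8, Mapk9 and Tab2. The widest range over probes was that of Dusp4, from 0.08 to 0.84, followed by Dusp14, from -0.42 to 0.20.

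Other genes of the pathway were read from a list of 78, of which 71 were tested. Both ratios were positive for 12 of these (16.9%), beside 29.2% of all genes, and negative for 29 (40.8%), beside 24.1%, and 30 (42.3%) had mixed signs, beside 46.7%. At 1.5-fold on both arrays 1 (1.41%) was higher in CD8+CD122+ cells, beside 0.742% of all genes, and 0 were lower, beside 0.369%, and limma called none at an adjusted p under 0.05. The higher one was Gadd45b, whose product activates the MAP3K MTK1 (Map3k4 here), with ratios of 0.72 and 1.49 (1.11 ± 0.55). At an unadjusted p under 0.05 there were 14 (19.7%), beside 6.4% of all genes: 8 higher, where the share of all genes is 2.87%, and 6 lower, where it is 3.53%. Among 14 genes of the Ras and Raf input, 1 was positive on both and 7 negative on both, and among 16 inhibitors of Ras and ERK 3 and 7. The counts were 4 and 5 of 14 stress inputs, 1 and 3 of 10 kinases downstream of MAP kinases, and 3 and 7 of 17 transcription factor genes. As with Dusp10, some of these genes went far apart on the arrays. Named after their values were seen, Fos had 0.30 and -1.86, Spag9, a JNK scaffold gene, -0.26 and 1.90, and Rras2 0.75 and -1.04.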

How the data were processed

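Splenic CD8+CD122+ and CD8+CD122- cells were compared on 2 two-colour arrays with exchanged dyes. The deposited scanner files hold, per the file headers, linear spot intensity values, processed signals, a log10 ratio of Cy5 over Cy3 and 0 or 1 flags. The authors made them with Agilent Feature Extraction, named in the submitters' processing notes, whose version in the headers is A.7.5.1 (array 1) or 8.1.1.1 (array 2). The deposited value table holds log10 ratios that equal those of the scanner within 0.0001 after the sign of array 1 is turned and that of array 2 kept. Its direction is therefore CD8+CD122- over CD8+CD122+. Its column medians are 0, and a centring step is neither stated nor settled by the values. Arrays carry no read depth, and their number limits the precision.

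With limma 3.58.1 (R 4.3.3), normexp (offset 50) was applied to mean signals and median local backgrounds, and loess to the log2 ratios of each array, where the 2256 control spots of 43790 had weight 0. Signs were turned to CD8+CD122+ over CD8+CD122-. Outlier spots were left out, spots of a probe averaged, and 30794 probes kept for which the same population was well above background on array 1 and on array 2. A gene was read from its brightest kept probe, a member from its brightest probe under the naming rule. Of 41174 probes, 21840 were named by accession, 5780 by symbol and 4393 by synonym through a RefSeq gene table of GRCm38.p6, and 9161 kept the name in the file. Older names in the files stood for Tab1, Tab2, Lamtor3, Mink1 and Styxl1.

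The fit in limma (lmFit, eBayes) had 1 coefficient and 1 residual degree of freedom. Its two-sided p-values were adjusted over 21960 genes after Benjamini-Hochberg. The steps were also run on simulated data to check the direction of the ratios. Those data had the same noise on both arrays, unlike these, so they do not speak for limma's calls here. Rules of size (1.5-fold and 2-fold on both arrays) carry no p-value. Named were members past 1.5-fold on both arrays, the 8 highest and 8 lowest of one sign, up to 2 of opposite signs in each class, Mapk3, Mapk8, Mapk9 and Mapk14, members with probes of either sign, Il2rb, Cd8a and Cd8b1, and other pathway genes past 1.5-fold. Other values named were chosen after they were seen, and 1 MAP kinase gene is counted but its values are not reported here. Members, lists, motifs and tests were chosen with earlier results of these data known. Alternatives were the deposited processed signals, median centring, no offset, no filter on dim probes and a stricter one, the mean of all probes, eBayes with a trend or robust, and each array alone. Tables were handled in Python 3.11.15 with pandas 2.3.3.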

Additional observations from a re-analysis of the deposited data

How the results depend on the processing

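Each ratio is taken within an array, so the fit already pairs the populations by array, and the arrays form 1 group, which leaves no further block to fit. With the deposited processed signals 1 member was at least 1.5-fold higher on both arrays, and of all genes 144 were 2-fold higher, 64 lower, 292 at least 1.5-fold higher and 257 lower. These were 68, 23, 163 and 81 in the processing reported. Without the offset they were 137, 57, 288 and 213, and with the mean of all probes 15 genes were 2-fold lower. With median centring 9 members were positive on both arrays and 9 negative. Then Dusp6 (0.69 and -0.08), Dusp2 (0.91 and -0.37) and Mapk3 (0.20 and -1.05) had opposite signs on the arrays. The cause was not tested.

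With 1 array left out, the members at least 2-fold higher numbered 0 to 3 and lower 0 to 1, and at 1.5-fold 0 to 5 and 1 to 4. Positive were 25 to 29, negative 27 to 31, and the median was -0.0499 to 0.00859. Of all genes, 97 to 257 were 2-fold higher, 39 to 179 lower, 248 to 725 at least 1.5-fold higher and 188 to 804 lower.

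For the 37 members that the rule for named genes took, 221 mean ratios were computed under the 6 other ways of processing, and 214 kept their sign. On 1 array alone, the sign turned for the 16 whose arrays differ in sign. The other 7 were small: Dusp11 -0.00799, Dusp22 -0.0909, Map2k4 0.00799 and Map3k4 0.00314 with the mean of all probes, Dusp12 -0.041 with median centring, Dusp22 -0.0219 with the processed signals and Map3k4 0.00914 without the offset. limma called 0 genes in every setting run, with a smallest adjusted p between 0.0647 and 0.178 over all genes and of at least 0.528 over members. Signal over background limits the 15 of 56 members under a mean log2 intensity of 7, whose ratios the offset shrinks. Of all 21960 genes tested 10080 are under 7, so the offset shrinks ratios in the comparison set too.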
